A study of Mus musculus with 6 samples.

Results

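The genes described here serve cytotoxic lymphocytes: the granule genes Nkg7, Prf1, Gzma and Gzmb, the natural killer (NK) receptor genes Klrd1, Klrk1 and Ncr1, and the transcription factor genes Tbx21, Eomes and Gata3. They were chosen by name, with earlier results of these data known, and all 10 were found among the 21399 gene symbols measured by RNA sequencing in 6 mouse libraries. Cytotoxic lymphocytes kill by releasing granules in which perforin opens the target's membrane and granzymes cleave proteins inside the target. NK cells use this machinery under the control of inherited receptors, and CD8 T cells arm themselves with the same granules after activation. T-bet, encoded by Tbx21, and Eomes direct the type 1 programme of both cells, whereas GATA3 is best known for type 2 helper T cells and innate lymphoid cells and is also needed by developing T cells.

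The study compared 3 libraries labelled KO with 3 labelled WT, from co-cultures of primary mouse microglia and peritoneal macrophages. Per the series' design text, KO or WT microglia carrying the CD45.2 form of the leukocyte protein CD45 went through oxygen and glucose deprivation and reoxygenation, and macrophages from CD45.1 mice, which both groups received, were added during reoxygenation. The text calls the sorted cells microglia and also CD45.1-positive, so the descriptions do not settle which cells were sequenced. The deleted gene, the kind of allele and the number of animals are not named in the labels, and the series title names PPARα. Nor do the labels say whether replicates stem from different cultures or animals. The p-values given here are therefore set against a library-to-library spread that may be technical.

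Values were FPKM, fragments scaled to transcript length and library depth, and whole reads recovered from them summed to between 34542822 and 38092819 per library. Ppara, which encodes PPARα, was near the detection limit, with 13, 23 and 10 reads in the KO-labelled libraries and 11, 1 and 2 reads in the WT-labelled libraries. It was thus not lower in the libraries labelled KO (exact two-sided permutation p = 0.2), and reads summed over a gene cannot show a deletion of part of it. The groups are accordingly named by their labels, and every direction given here is that of the labelled groups. The libraries held abundant B cell RNA, and peritoneal macrophage markers summed to between 7087 and 13851 FPKM over 18 genes in the KO-labelled libraries, against 1697 to 4772 FPKM in the WT-labelled libraries. Of 12 microglia markers found, 2 reached 1 FPKM in every library, and the microglial factor gene Sall1 stayed at or below 0.152 FPKM. These are bulk libraries, in which fewer cells of a type and less RNA per cell cannot be told apart.

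The level of the 10 genes ran from Nkg7, at a mean of 12.7 FPKM over the 6 libraries, to Gzmb at 0.235 FPKM. FPKM is per length, so levels may be compared between genes. Klrd1 came second at 6.29 FPKM, and the order Nkg7, Klrd1, Prf1 held in all 6 libraries with no overlap of ranges. Below them followed Prf1 at 2.70, Tbx21 at 2.53, Klrk1 at 1.86, Eomes at 1.71, Gzma at 1.48 and Gata3 at 0.863 FPKM, and the ranges of each pair of neighbours in this stretch overlapped. Gata3 was above Ncr1, at 0.263 FPKM, in 6 of 6 libraries with no overlap, whereas Ncr1 and Gzmb overlapped. Nkg7 ranked 4773 and Gzmb 12768 among all genes by mean level. Of the 10 genes, 6 reached 1 FPKM in every library, and 7 passed the filter of a mean of at least 1 FPKM. Gzmb, Ncr1 and Gata3 did not pass.

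**Figure D1:**
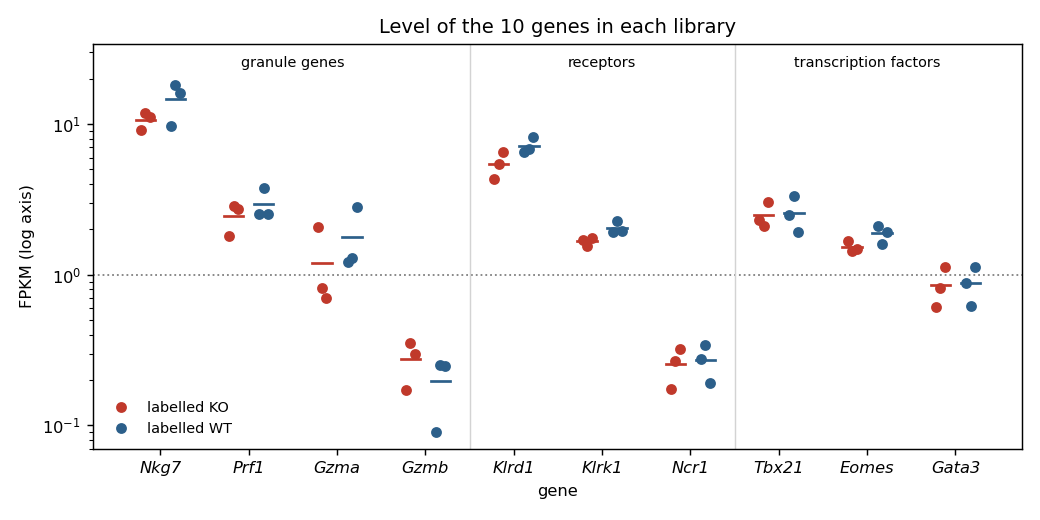
FPKM of each of the 10 genes (log axis) in the 3 KO-labelled (red) and 3 WT-labelled (blue) libraries, 1 point per library, with bars at the group means and a dotted line at 1 FPKM. Nkg7 and Klrd1 stand above the rest, Gzmb and Ncr1 lie below 0.4 FPKM in every library, and only for Klrk1 do the groups not overlap.

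Between the groups, none of the 7 tested genes passed the test. Limma on log2(FPKM + 1) with Benjamini-Hochberg adjustment over all 10732 genes tested called 0 of 7, with adjusted p from 0.283 to 0.944, and voom, run with limma over recovered reads, called 0 too. At an unadjusted limma p under 0.05 stood 1 gene, Klrd1, for which voom gave an unadjusted p of 0.0607. Over the whole table limma called 0.028% of genes, all 3 of them higher in the KO-labelled libraries, and 17.1% stood at an unadjusted p under 0.05. By direction, 8.86% of genes were at that unadjusted p and higher in the KO-labelled libraries, and 8.21% were lower. All 7 estimates were below 0, with a median log2 fold change of -0.19, beside a median of -0.06 and 64.6% of estimates below 0 over all genes tested. The mean FPKM of 9 of the 10 genes was lower in the KO-labelled libraries, as it was for 62.5% of all genes in the files.

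**Figure D2:**
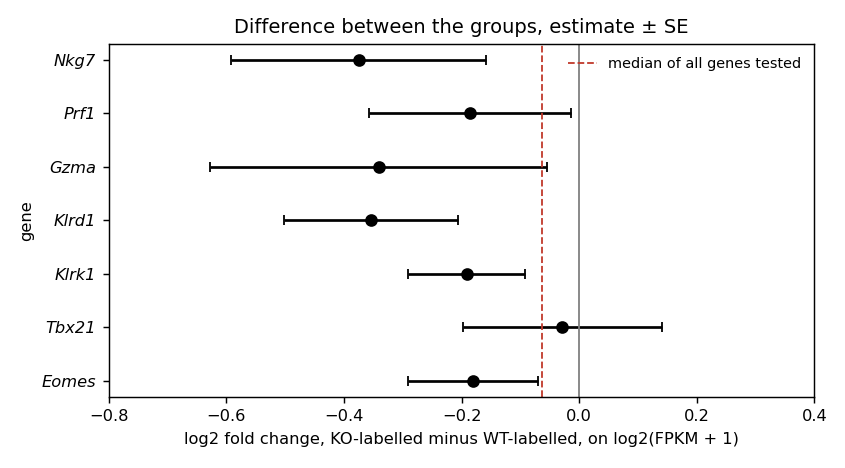
Log2 fold change of the 7 genes that passed the filter, KO-labelled minus WT-labelled libraries on log2(FPKM + 1), with bars for the standard error of the limma fit and a dashed line at the median of all genes tested, -0.06. The estimates run from -0.38 for Nkg7 to -0.03 for Tbx21.

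Nkg7 encodes a granule membrane protein needed for the release of cytotoxic granules. It stood at 9.10, 11.8 and 11.2 FPKM in KO-labelled libraries 1 to 3, against 9.65, 18.1 and 16.0 FPKM in WT-labelled libraries 1 to 3. WT-labelled libraries 2 and 3 were higher than every KO-labelled library, while WT-labelled library 1 lay among them. The mean was 10.7 ± 1.44 FPKM in the KO-labelled and 14.6 ± 4.39 FPKM in the WT-labelled libraries (SD, n = 3 each), a ratio of 0.735. The log2 fold change was -0.38 with SE 0.22 (limma adjusted p = 0.425), and the exact two-sided permutation p was 0.3, where 0.1 is the smallest that 3 against 3 allows.

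Nkg7 occupies bases 43437073 to 43438249 of chromosome 7 (mm10, plus strand) and overlaps no other gene in GENCODE M21. RefSeq promoter windows (build GRCm38.p6, 250 bases before to 50 after the start of transcription) were matched for 9 of the 10 genes, Klrd1 being the exception. Shown are those of Nkg7, the gene with the highest level, and of both granzymes, whose levels went apart between libraries. Capitals mark matches on either strand to the T-box motif GGTGTGA, bound by T-bet and Eomes, and to the RUNX motif TGTGGTT.
Nkg7, chr7:43436888-43437187, plus strand: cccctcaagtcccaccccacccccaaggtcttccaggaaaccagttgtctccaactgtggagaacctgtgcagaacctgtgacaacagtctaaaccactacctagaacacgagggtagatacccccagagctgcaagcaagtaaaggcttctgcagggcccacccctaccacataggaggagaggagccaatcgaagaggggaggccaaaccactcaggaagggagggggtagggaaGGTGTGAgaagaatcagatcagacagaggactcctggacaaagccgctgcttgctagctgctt
Gzma, chr13:113100932-113101231, minus strand: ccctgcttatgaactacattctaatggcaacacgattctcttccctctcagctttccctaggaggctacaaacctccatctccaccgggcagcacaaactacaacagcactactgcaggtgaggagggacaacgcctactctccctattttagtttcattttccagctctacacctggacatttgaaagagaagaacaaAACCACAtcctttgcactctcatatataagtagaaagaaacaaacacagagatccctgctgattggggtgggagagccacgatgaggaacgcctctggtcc
Gzmb, chr14:56262285-56262584, minus strand: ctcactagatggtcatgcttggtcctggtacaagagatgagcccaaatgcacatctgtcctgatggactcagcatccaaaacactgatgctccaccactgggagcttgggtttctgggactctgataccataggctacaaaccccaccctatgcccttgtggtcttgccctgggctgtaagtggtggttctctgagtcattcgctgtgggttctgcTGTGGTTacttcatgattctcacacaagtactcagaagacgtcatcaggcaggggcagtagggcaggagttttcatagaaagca

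The RefSeq start of Nkg7, at base 43437138, lies 65 bases inside the gene as GENCODE M21 draws it. The T-box letters began at base 43437125, which is 13 bases before the RefSeq start and 52 bases after the GENCODE start. For Gzmb the RefSeq start lies 74 bases before the GENCODE start, and for Gzma both are the same base. That of Gata3 lies 11434 bases inside the GENCODE gene, so its window is far from the outermost GENCODE start. The T-box letters were found in no other gene of the 9, while 3.98% of all 32851 promoter windows hold them. The RUNX letters were found in 4 of the 9 genes, Gzma, Gzmb, Klrk1 and Ncr1, and in 5.27% of all windows. The STAT letters TTCNNNGAA were found for Nkg7 and Gzmb, and in 8.30% of all windows. In the windows of the set no match overlapped another.

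Prf1 encodes perforin, the pore-forming protein of the granule. It stood at 1.81, 2.87 and 2.71 FPKM in KO-labelled libraries 1 to 3, against 2.53, 3.76 and 2.53 FPKM in WT-labelled libraries 1 to 3. KO-labelled library 1 was the lowest and WT-labelled library 2 the highest, and the other 4 libraries lay close together, so the groups overlapped. The means were 2.46 ± 0.573 FPKM in the KO-labelled and 2.94 ± 0.710 FPKM in the WT-labelled libraries (SD, n = 3 each), with a log2 fold change of -0.19 and SE 0.17 (limma adjusted p = 0.609).

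Gzma and Gzmb encode granzymes A and B, serine proteases of the granule with tryptase-like and aspartate-directed specificity. Gzma was the gene that varied most, 3.99-fold between its highest and lowest library. Gzma had 70, 27 and 22 reads in KO-labelled libraries 1 to 3 (2.07, 0.818 and 0.703 FPKM), against 39, 42 and 86 reads in WT-labelled libraries 1 to 3 (1.22, 1.29 and 2.81 FPKM). The highest library of each group thus stood apart from the other 2 of its group. Counting error does not span that gap: the exact Poisson 95% interval ran from 1.61 to 2.62 FPKM in KO-labelled library 1 and from 0.539 to 1.19 FPKM in KO-labelled library 2, and such intervals cover counting error only. The log2 fold change of Gzma was -0.34 with SE 0.29 (limma adjusted p = 0.572).

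Gzmb was the only 1 of the 10 genes with a higher mean in the KO-labelled libraries. It had 10, 20 and 16 reads in KO-labelled libraries 1 to 3 (0.172, 0.353 and 0.298 FPKM), against 5, 14 and 13 reads in WT-labelled libraries 1 to 3 (0.0910, 0.250 and 0.247 FPKM). The groups overlapped, and the exact two-sided permutation p was 0.4. In WT-labelled library 1 the 5 reads gave an exact Poisson 95% interval of 0.0296 to 0.212 FPKM, just below the 0.216 to 0.545 FPKM of KO-labelled library 2, and the intervals of the other libraries overlapped both. The ratio of Gzma to Gzmb in FPKM, chosen after the values were seen like the other ratios between genes, was 12.01, 2.32 and 2.36 in KO-labelled libraries 1 to 3 and 13.4, 5.15 and 11.4 in WT-labelled libraries 1 to 3. Gzma exceeded Gzmb in every library, with no separation of the groups in the ratio (exact two-sided permutation p = 0.3). In mm10 Gzma lies on chromosome 13 from 113093825 to 113100981 and Gzmb on chromosome 14 from 56258838 to 56262260, both on the minus strand. Gzmb is also made by mast cells, whose 9 markers summed to 480, 481 and 114 FPKM in KO-labelled libraries 1 to 3 and to 13.3, 570 and 259 FPKM in WT-labelled libraries 1 to 3. Gzmb and the mast cell sum were both lowest in WT-labelled library 1, but the mast cell sum was highest in WT-labelled library 2 and Gzmb in KO-labelled library 2. The part of mast cells in the level of Gzmb was not tested.

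Klrd1 encodes CD94, which pairs with NKG2 chains to read the MHC class Ib molecule Qa-1 on other cells. It stood at 4.29, 5.43 and 6.56 FPKM in KO-labelled libraries 1 to 3, against 6.48, 6.84 and 8.16 FPKM in WT-labelled libraries 1 to 3. KO-labelled library 3 just exceeded the lowest WT-labelled library, and the groups were otherwise in order. The means were 5.43 ± 1.13 FPKM in the KO-labelled and 7.16 ± 0.885 FPKM in the WT-labelled libraries (SD, n = 3 each). The log2 fold change of -0.35, with SE 0.15, had an unadjusted limma p of 0.0457 and an adjusted limma p of 0.283.

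Klrk1 encodes NKG2D, an activating receptor for stress-induced ligands. It was the 1 gene whose groups did not overlap, with 1.69, 1.56 and 1.76 FPKM in KO-labelled libraries 1 to 3, against 1.93, 2.27 and 1.96 FPKM in WT-labelled libraries 1 to 3. Groups did not overlap, with the KO-labelled libraries lower, for 15.2% of all genes tested (9.75% with the KO-labelled libraries higher), so 1 of 7 is near that background. The means were 1.67 ± 0.101 FPKM in the KO-labelled and 2.05 ± 0.189 FPKM in the WT-labelled libraries (SD, n = 3 each), a log2 fold change of -0.19 with SE 0.10 (limma adjusted p = 0.376), and the exact two-sided permutation gave p = 0.1, the lower limit for this design. Klrd1 and Klrk1 are neighbours in the NK gene complex on chromosome 6 of mm10, at 129591782 to 129598775 on the plus strand and 129610323 to 129623864 on the minus strand. The length that the reads and FPKM of Klrk1 imply was 0.484 of its annotated exons, and 0.882 to 1.06 for the other genes of the set, so the level of Klrk1 relative to other genes depends on the gene model. The ratio of Klrd1 to Klrk1 stayed between 2.54 and 4.17 in the 6 libraries.

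Ncr1 encodes NKp46, an activating receptor that in mice is largely restricted to NK cells and related innate lymphoid cells. It had 10, 15 and 17 reads in KO-labelled libraries 1 to 3, against 15, 19 and 10 reads in WT-labelled libraries 1 to 3. The groups spanned nearly the same range, 0.175 to 0.321 FPKM in the KO-labelled and 0.193 to 0.344 FPKM in the WT-labelled libraries (exact two-sided permutation p = 0.7). The name of the gene set was therefore checked against cell markers: Ncr1 and Klrb1c, the gene of the antigen NK1.1 that NK, NKT and some innate lymphoid cells carry, stayed below 1 FPKM in every library. The T cell gene Cd3e, in contrast, stood at 19.9 ± 2.70 FPKM in the KO-labelled and 25.4 ± 3.06 FPKM in the WT-labelled libraries. None of the 10 NK markers was at 0 in any library, but all except Klrb1c, Klre1 and Klra8 are themselves genes of the set. The 5 that reached 1 FPKM in every library, Eomes, Prf1, Nkg7, Klrd1 and Klrk1, all belong to the set and are shared with activated T cells. They are thus no independent check of its name. Klre1 averaged 0.474 FPKM in the KO-labelled and 0.786 FPKM in the WT-labelled libraries, and Klra8 0.460 and 0.234 FPKM.

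Tbx21 stood at 2.32, 2.10 and 3.04 FPKM in KO-labelled libraries 1 to 3, against 2.49, 3.33 and 1.93 FPKM in WT-labelled libraries 1 to 3. The WT-labelled libraries held both the highest and the lowest value, and the log2 fold change was -0.03 with SE 0.17 (limma adjusted p = 0.944). Its log2 fold change was 0.02 under median-of-ratios scaling, so no direction can be given for Tbx21.

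Eomes, the related T-box factor, stood at 1.68, 1.44 and 1.49 FPKM in KO-labelled libraries 1 to 3, against 2.12, 1.60 and 1.92 FPKM in WT-labelled libraries 1 to 3. The groups overlapped through WT-labelled library 2 alone, and the log2 fold change was -0.18 with SE 0.11 (limma adjusted p = 0.449). WT-labelled library 2 was thus the highest library for Tbx21 and the lowest of its group for Eomes. The ratio of Tbx21 to Eomes in FPKM was 1.38, 1.46 and 2.05 in KO-labelled libraries 1 to 3 and 1.18, 2.08 and 1.00 in WT-labelled libraries 1 to 3, with no separation of the groups (exact two-sided permutation p = 0.6).

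Gata3 stood at 0.612, 0.817 and 1.12 FPKM in KO-labelled libraries 1 to 3, against 0.878, 0.621 and 1.13 FPKM in WT-labelled libraries 1 to 3. The reads ranged from 92 to 156 in the KO-labelled and from 90 to 154 in the WT-labelled libraries, so the groups overlapped nearly throughout, and the means were 0.849 ± 0.256 FPKM in the KO-labelled and 0.876 ± 0.254 FPKM in the WT-labelled libraries (SD, n = 3 each; exact two-sided permutation p = 0.7). Eomes overlaps the antisense gene Gm33460, and Gata3 overlaps Gm13256, 4930412O13Rik and 9230102O04Rik. Because the strand setting of the counting is not given in the sources used here, reads of overlapping genes on opposite strands cannot be told apart. The gene 9230102O04Rik lies on the minus strand like Gata3, so a strand setting would not separate their reads.

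**Figure D3:**
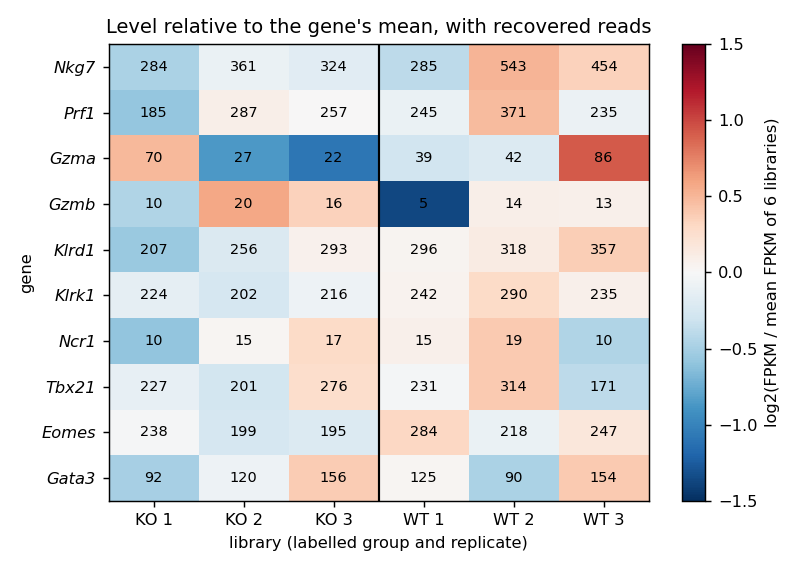
Level of each gene in each library as log2 of its FPKM over its mean in the 6 libraries (red above the mean, blue below), with the recovered reads printed in each cell. WT-labelled library 2 holds the highest value of 5 genes and KO-labelled library 1 the lowest value of 5, while Gzma, Gzmb and Eomes have both extremes in other libraries.

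The genes did not vary as 1 block over the libraries. WT-labelled library 2 held the highest FPKM of 5 genes, Nkg7, Prf1, Klrk1, Ncr1 and Tbx21, and KO-labelled library 1 the lowest of 5, Nkg7, Prf1, Klrd1, Ncr1 and Gata3. Gzma, Gzmb and Eomes had both extremes in other libraries: Gzma was highest in WT-labelled library 3 and lowest in KO-labelled library 3, Gzmb highest in KO-labelled library 2 and lowest in WT-labelled library 1, and Eomes highest in WT-labelled library 1 and lowest in KO-labelled library 2. By the root mean square difference of centred log2(FPKM + 1) over the 6 libraries, the tested genes outside the set most like Nkg7 were Gm36266, Npff, Hirip3, Gpt and Mgst2, at 0.103 to 0.116. Among the genes of the set that passed the filter, Prf1 was closest to Nkg7 at 0.22, rank 336 of the tested genes, and Gzma the farthest at 0.47, rank 9296. Profiles over 6 libraries share depth and cell make-up, so these ranks are descriptions.

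Levels of T cell markers were also lower on average in the KO-labelled libraries. All 17 tested T cell markers had estimates below 0, none passed the limma test, 9 stood at an unadjusted p under 0.05 and lower, and their median log2 fold change was -0.30. Over all genes tested, 64.6% of estimates were below 0 and 8.21% were lower at that unadjusted p. The summed level of the T cell markers was 430 to 493 FPKM in the KO-labelled and 487 to 593 FPKM in the WT-labelled libraries, and no marker was at 0. The largest part of that sum was Cd2, at 210 ± 15.2 FPKM in the KO-labelled and 237 ± 29.0 FPKM in the WT-labelled libraries. The part of B cells, whose RNA was abundant here, in the level of Cd2 was not tested. Relative to Cd3e, Nkg7 stood at 0.538 ± 0.00727 in the KO-labelled and 0.566 ± 0.112 in the WT-labelled libraries (SD, n = 3 each; exact two-sided permutation p = 0.8). Klrd1 relative to Cd3e was 0.271 ± 0.0334 in the KO-labelled and 0.284 ± 0.0371 in the WT-labelled libraries (exact two-sided permutation p = 0.9). The 10 B cell markers were also all below 0 in estimate, with a median of -0.23, and 17 of 18 peritoneal macrophage markers were above 0, with a median of 1.68. B cell markers summed to 4471 to 4864 FPKM in the KO-labelled and 5065 to 5775 FPKM in the WT-labelled libraries, and microglia markers to 109.6 to 126 FPKM in the KO-labelled and 99.5 to 125 FPKM in the WT-labelled libraries. Plasmacytoid dendritic cell markers summed to 991 to 1114 FPKM in the KO-labelled and 1141 to 1287 FPKM in the WT-labelled libraries. Most of that sum was Ly6d and Spib, which B cells also express, while Siglech and Cox6a2 stayed below 1 FPKM in every library. Neutrophil markers summed to 29.6 to 44.4 FPKM in the KO-labelled and 6.46 to 21.9 FPKM in the WT-labelled libraries. That sum rested on Csf3r and S100a8, while S100a9 and Cxcr2 were at 0 in every KO-labelled library and Retnlg averaged 0.122 FPKM in the KO-labelled and 0.350 FPKM in the WT-labelled libraries. Markers of NKT and innate lymphoid cells summed to 2.66 to 7.46 FPKM in the KO-labelled and 1.60 to 6.27 FPKM in the WT-labelled libraries. The gene with the highest mean in that list was Il1rl1, which mast cells also express and which, like the mast cell sum, was lowest in WT-labelled library 1. The part of these cell types in the levels of the set was not tested.

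**Figure D4:**
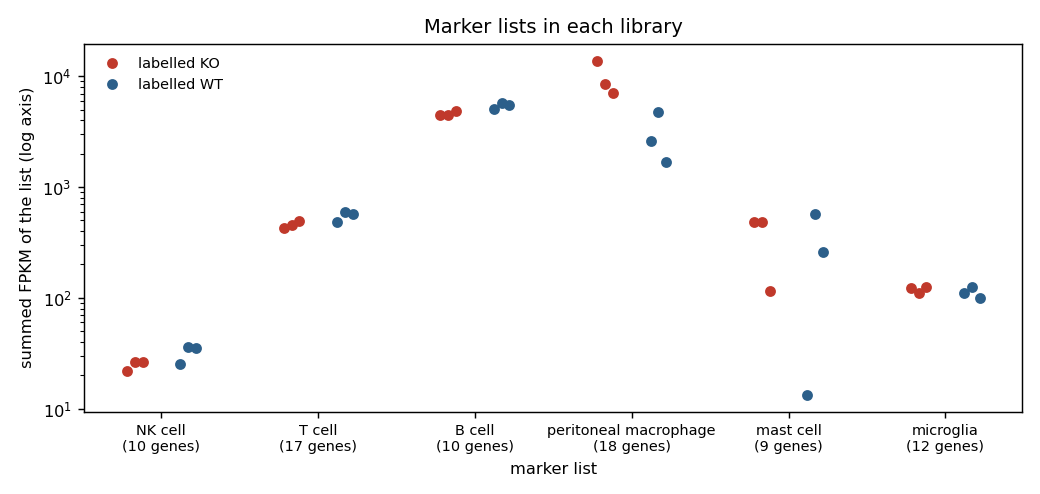
Summed FPKM of 6 marker lists (log axis) in the 3 KO-labelled (red) and 3 WT-labelled (blue) libraries, 1 point per library. T cell markers, of which Cd2 is the largest part, sum to 430 to 593 FPKM and NK markers to 22.0 to 35.8 FPKM. All NK markers except Klrb1c, Klre1 and Klra8 are genes of the set. The macrophage sum is higher in every KO-labelled library.

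In 8 related lists, limma called no gene. At an unadjusted limma p under 0.05 stood 17.1% of all genes tested, 8.86% higher and 8.21% lower in the KO-labelled libraries. Of the granule effectors, 2 of 8 stood at that p, 1 higher and 1 lower, and of the granule release genes 1 of 7, higher. Of the further NK receptor genes it was 1 of 7, lower, and of the adaptors 3 of 9, with 2 higher and 1 lower. Of the type 1 cytokine axis it was 3 of 9, all lower, and of the transcription factors 4 of 10, with 3 higher and 1 lower. Of the type 2 genes it was 1 of 3, lower, and of the ligand genes 0 of 2. Of 13 further effectors and death ligands found, 8 were tested and none passed. Ctsw, a cathepsin of cytotoxic lymphocytes, stood at 16.96 ± 1.52 FPKM in the KO-labelled and 23.6 ± 3.17 FPKM in the WT-labelled libraries (SD, n = 3 each; log2 fold change -0.45, SE 0.12, limma adjusted p = 0.138). Ctsc, the cathepsin that activates granzymes and is also made by myeloid cells, went the other way at 84.9 ± 9.11 FPKM in the KO-labelled and 59.4 ± 10.9 FPKM in the WT-labelled libraries (limma adjusted p = 0.150). Srgn, the granule proteoglycan, stood at 129 ± 12.8 FPKM in the KO-labelled and 110.2 ± 14.3 FPKM in the WT-labelled libraries (limma adjusted p = 0.393). Gzmk, named after its values were seen, was the most abundant granzyme, at 8.59 ± 1.15 FPKM in the KO-labelled and 10.4 ± 1.91 FPKM in the WT-labelled libraries. Gzmc, Gzmd and Gzme were at 0 in at least 1 library each, and reads of these near-identical copies may be shared.

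Of 9 granule release genes listed, 8 were found and 7 were tested, and none passed. The 7 tested genes reached 1 FPKM in every library, while Sytl2 stayed at or below 0.404 FPKM. These libraries also hold macrophage and mast cell RNA, and the part of those cells in these levels was not tested. Rab27a, a small GTPase of granule docking, stood at 11.3 ± 0.317 FPKM in the KO-labelled and 9.19 ± 1.39 FPKM in the WT-labelled libraries (SD, n = 3 each; limma adjusted p = 0.271). Unc13d, which primes granules for fusion, stood at 21.2 ± 2.08 FPKM in the KO-labelled and 24.2 ± 2.06 FPKM in the WT-labelled libraries. The syntaxin partner gene Stxbp2 stood at 56.9 ± 3.17 FPKM in the KO-labelled and 51.7 ± 5.21 FPKM in the WT-labelled libraries, and its groups overlapped. So did those of the vesicle fusion gene Vamp8, at 140 ± 28.1 FPKM in the KO-labelled and 117 ± 16.1 FPKM in the WT-labelled libraries. The median log2 fold change of these 7 genes was 0.07.

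Of 28 further NK receptor genes found, 7 reached the filter and none passed the test, with a median log2 fold change of -0.25. Klra7, a Ly49 receptor, stood at 0.833 ± 0.244 FPKM in the KO-labelled and 1.77 ± 0.465 FPKM in the WT-labelled libraries (SD, n = 3 each; log2 fold change -0.59, SE 0.16, limma adjusted p = 0.152). Its groups did not overlap, as was so for 3 of the 7 tested genes of this list, all lower in the KO-labelled libraries. Over all genes tested, 15.2% were apart in that direction. The other Ly49 genes listed did not pass the filter. Of these, Klra4 and Klra8 had higher means in the KO-labelled libraries, and the others had lower means. Reads of the near-identical Ly49 copies may be shared. Il2rb, the receptor chain for interleukins 2 and 15, stood at 10.4 ± 2.63 FPKM in the KO-labelled and 12.4 ± 1.09 FPKM in the WT-labelled libraries. Slamf7 stood at 5.61 ± 0.540 FPKM in the KO-labelled and 6.85 ± 0.837 FPKM in the WT-labelled libraries. Cd96, which encodes a receptor of T and NK cells, stood at 4.19 ± 0.719 FPKM in the KO-labelled and 5.34 ± 0.586 FPKM in the WT-labelled libraries.

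Of the adaptors that carry receptor signals, none of 9 tested genes passed, 7 had estimates below 0 and 2 above, and the median log2 fold change was -0.16. Both genes above 0, Tyrobp and Fcer1g, had the largest log2 fold changes of the genes that passed the filter in the 8 related lists. Tyrobp, the adaptor DAP12 shared by NK and myeloid receptors, stood at 633, 361 and 323 FPKM in KO-labelled libraries 1 to 3, against 123, 254 and 133 FPKM in WT-labelled libraries 1 to 3 (log2 fold change 1.38, SE 0.34, limma adjusted p = 0.127). Fcer1g, the Fc receptor gamma chain, stood at 178 ± 70.3 FPKM in the KO-labelled and 63.9 ± 31.2 FPKM in the WT-labelled libraries (SD, n = 3 each; limma adjusted p = 0.128). Both are highly expressed by macrophages, and both, like the macrophage sum given above, were higher in every KO-labelled library than in any WT-labelled library. The part of macrophages in these 2 genes was not tested. Cd247, the CD3 zeta chain gene, and Hcst were named after their values were seen. Cd247 stood at 3.46 ± 0.195 FPKM in the KO-labelled and 4.66 ± 0.528 FPKM in the WT-labelled libraries (SD, n = 3 each), without overlap (log2 fold change -0.34, SE 0.10, limma adjusted p = 0.177), and it is also on the T cell marker list. Groups did not overlap for 5 of the 9 adaptors tested, 2 higher and 3 lower in the KO-labelled libraries. Over all genes tested, 9.75% were apart and higher and 15.2% apart and lower. Hcst encodes the adaptor DAP10 of NKG2D and stood at 34.6 ± 0.254 FPKM in the KO-labelled and 36.2 ± 5.60 FPKM in the WT-labelled libraries. Of the ligand genes, H2-T23, which encodes Qa-1, stood at 363 ± 45.7 FPKM in the KO-labelled and 399 ± 47.3 FPKM in the WT-labelled libraries. The NKG2D ligand gene H60b stood at 2.16 ± 0.558 FPKM in the KO-labelled and 1.87 ± 0.204 FPKM in the WT-labelled libraries, and limma called neither.

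Of the type 1 cytokine axis, 9 of 13 genes were tested and none passed. Il18r1 and Il18rap, which encode both chains of the interleukin-18 receptor, stood at 2.32 ± 0.305 and 1.30 ± 0.380 FPKM in the KO-labelled libraries, against 3.40 ± 0.731 and 2.10 ± 0.447 FPKM in the WT-labelled libraries (SD, n = 3 each; limma adjusted p = 0.241 for each). Neither gene's groups overlapped. Groups did not overlap for 3 of the 9 tested genes of this list, all lower in the KO-labelled libraries. Over all genes tested, 15.2% were apart in that direction. The interferon gamma receptor gene Ifngr1 stood at 111 ± 7.59 FPKM in the KO-labelled and 117 ± 15.8 FPKM in the WT-labelled libraries. Its partner Ifngr2 stood at 71.9 ± 6.84 FPKM in the KO-labelled and 65.2 ± 2.36 FPKM in the WT-labelled libraries, and the groups of both overlapped. Ifng itself, named after its values were seen, stayed at or below 0.523 FPKM.

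Among 10 tested transcription factors of NK and effector lymphocytes none passed, and 6 had groups that did not overlap, beside 24.9% of all genes tested. Zeb2, a factor of mature NK cells and of macrophages, stood at 18.1 ± 0.883 FPKM in the KO-labelled and 11.6 ± 1.33 FPKM in the WT-labelled libraries (SD, n = 3 each; log2 fold change 0.61, SE 0.10, limma adjusted p = 0.0948). Nfil3, which NK cell development requires, stood at 16.2 ± 1.05 FPKM in the KO-labelled and 6.70 ± 2.81 FPKM in the WT-labelled libraries (log2 fold change 1.22, SE 0.23, limma adjusted p = 0.106). Irf8 stood at 127 ± 3.50 FPKM in the KO-labelled and 145 ± 3.34 FPKM in the WT-labelled libraries, without overlap, and Ets1 at 142 ± 13.9 FPKM in the KO-labelled and 157 ± 26.3 FPKM in the WT-labelled libraries, with overlap. Zeb2 and Nfil3, like the macrophage sum, were higher in every KO-labelled library than in any WT-labelled library. The part of macrophages and B cells in the levels of these factors was not tested. Beside Gata3, the type 2 genes Il4, Il5 and Il13 were at 0 in at least 1 library each, and none of 3 tested genes passed. The most abundant of them were Zfpm1, a cofactor of GATA proteins, at 5.98 ± 0.287 FPKM in the KO-labelled and 6.67 ± 0.995 FPKM in the WT-labelled libraries, and Il9r, a receptor for interleukin-9, at 4.57 ± 0.229 FPKM in the KO-labelled and 5.81 ± 1.01 FPKM in the WT-labelled libraries.

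**Figure D5:**
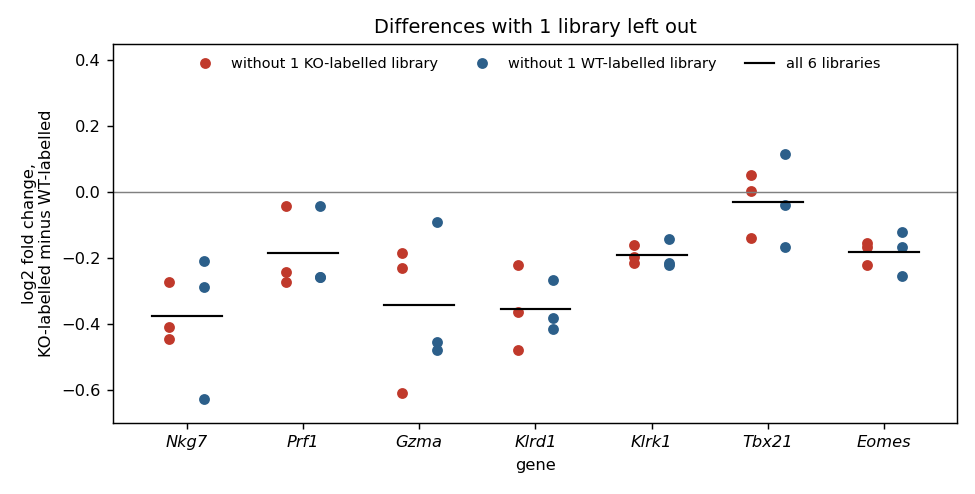
Log2 fold change of the 7 tested genes with 1 library left out in turn, KO-labelled (red) or WT-labelled (blue) libraries, with black bars for all 6 libraries. Nkg7 runs from -0.63 to -0.21, Gzma from -0.61 to -0.09, and Tbx21 falls on both sides of 0.

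Several estimates depended on single libraries. The log2 fold change of Nkg7 was -0.63 without WT-labelled library 1 and -0.21 without WT-labelled library 2, and that of Gzma was -0.61 without KO-labelled library 1 and -0.09 without WT-labelled library 3. Klrd1 kept estimates between -0.48 and -0.22 and Klrk1 between -0.22 and -0.14. Prf1 was at -0.04 without KO-labelled library 1 and without WT-labelled library 2. None of the 7 genes was called with any library left out.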

How the data were processed

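RNA was sequenced from 3 libraries labelled KO and 3 labelled WT, extracted with TRIzol and prepared with the VAHTS Universal V6 kit, per the labels' protocols. The deposited values are FPKM, 1 table of 21399 symbols per library, on build mm10 according to the files' labels, that is per the submitters' processing notes. For the aligner, counting tool, strand setting and annotation the entry is "not given in the sources used here". Within a gene the FPKM values were whole multiples of 1 read in all 6 libraries for 100.0% of 19331 genes (tolerance 0.002 reads), and in a simulation of this step 98.3% of 1452 genes came back exactly. If every count of a gene shared a divisor, these reads would be too low by it. Intervals on reads cover counting error only.

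The filter kept genes averaging 1 FPKM or more, which were tested on log2(FPKM + 1), which understates changes of low genes, with limma 3.58.1 in R 4.3.3 (mean-variance trend, Benjamini-Hochberg adjustment at 0.05). On simulated tables of 10732 genes, 81.0% of 200 genes changed by 1 log2 unit were recovered, with 6 false calls. Those genes were drawn over all levels, and the simulated noise was independent between genes. The estimates of the set ran only from -0.38 to -0.03, so that share is not the power of the test for these genes. Single values were compared by exact two-sided permutation. Scripts used Python 3.11.15, pandas 2.3.3, numpy 2.4.6, scipy 1.17.1 and matplotlib 3.10.9.

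The 10 genes, 8 related lists and 9 marker lists were chosen with earlier results of these data known. Named were all 10 genes and, per related list, the 2 with the highest mean and the 2 with the smallest p. Likeness was measured to the gene with the highest mean. Alternatives were other pseudocounts, filters, scalings and variance models, array weights, voom, a replicate block and leaving out each library. Splice forms and CD45 alleles were not analysed here. Positions came from GENCODE M21 and promoters from RefSeq, both on the mm10 assembly.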

Additional observations from a re-analysis of the deposited data

How the results depend on the processing

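None of the tested genes of the set was called under any of 18 alternatives, with the smallest adjusted p of each fit between 0.155 and 0.525. Which genes stood at an unadjusted limma p under 0.05 varied between fits. Klrd1 stayed under it with either other pseudocount (0.0463 and 0.0445), but was at 0.0685 with no filter and 0.0633 under median-of-ratios scaling. Nkg7 stood at 0.0290 with the replicate block and 0.00309 without WT replicate 1, and Eomes at 0.0217 with array weights. The count of genes called over the whole table, 3 as reported, was 6 with a pseudocount of 5, 0 with no filter, 5 by voom, 11 with the replicate block and 612 with array weights, and ran from 0 to 552 when 1 library was left out (0 without WT replicate 1, 1 without KO replicate 1 or 2, and 552 without WT replicate 2). The cause was not tested. Same-numbered libraries did not deviate together (correlations of -0.21, -0.38 and 0.27), so the numbers were not taken as pairs, and the block called no gene of the set. The set's median log2 fold change, -0.19, was -0.28 with a pseudocount of 0.1, -0.0886 with a pseudocount of 5, -0.36 with a filter at 5 FPKM, where 2 genes were left, and -0.30 by voom, and ran from -0.26 to -0.21 with 1 library left out. Tbx21 turned to 0.0156 under median-of-ratios scaling and to 0.00220, 0.05 and 0.12 without KO replicate 1, KO replicate 2 and WT replicate 2 in turn (range -0.17 to 0.12 over all left-out libraries), and Prf1 to 0.0234 with array weights. The untested differences of Ncr1 (-0.06 to 0.03) and Gata3 (-0.12 to 0.08) changed sign among the left-out libraries by less than the spread between replicates, and Gzmb's difference moved to 0.36 with a pseudocount of 0.1. With 5 to 20 reads per library, Gzmb and Ncr1 are limited by counting error.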
